A study of Homo sapiens with 2 samples.

Results

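Binding of oestrogen receptor α (ERα) was examined at THSD4, a large gene on the long arm of chromosome 15 (band 15q23), in T47D cells. The peaks are the rows of 1 deposited ERα peak list whose centres lie in chr15:71250000-72150000 of the hg19 build. They number 24 of the 12688 peaks in the list and 24 of the 443 on chromosome 15. The locus was chosen from the peak list itself, because many listed peaks lie close together there. The number and crowding of its peaks are therefore given as a description and carry no test. THSD4 runs on the plus strand, with starts taken as lying near 71389291 and 71433788 and an end near 72075722. These 3 positions came with the choice of the locus and stand in hg19. No hg19 annotation of exons, introns or untranslated regions was used here, so peaks are placed by distance from these positions.

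T47D is an established human breast cancer cell line that carries ERα. As the labels state, the cells spent 48 h in medium without steroids before 10 nM 17β-estradiol, the main natural oestrogen, was added for 45 min. The ERα library was recovered with the H-20 antibody, and the input library is DNA of estradiol-treated T47D cells taken without an antibody. There was 1 library of each kind and no untreated library was analysed here, so no value has a replicate error and none measures a response to estradiol.

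THSD4 encodes a secreted protein with thrombospondin type 1 repeats, also named ADAMTSL6. It belongs to the ADAMTS-like family, whose members resemble ADAMTS proteases but lack the catalytic domain. The protein is known to bind fibrillin-1 and to promote the assembly of microfibrils in the extracellular matrix. Its transcript is known to be more abundant in oestrogen receptor-positive than in receptor-negative breast tumours. ERα itself is a ligand-activated transcription factor that binds DNA as a dimer, at paired copies of the half-site GGTCA or, with other factors such as the forkhead protein FOXA1, at less perfect sequences. Most of its sites in breast cancer cells are known to lie away from promoters, in introns and between genes.

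The highest-scoring peak of the locus covered the first THSD4 start, and the sequence just before that start is shown for this reason. The peak ran from 570 bp before to 297 bp after the first start. The RefSeq promoter table of the GRCh38.p14 build holds 3 THSD4 windows, each reaching from 250 bases before a start to 50 after it, and the bases before the start are printed for the first and the second. Coordinates were not carried between builds. The gene spans 686432 bp between the hg19 positions above and 686490 bp in the RefSeq table, a difference of 58 bp, so the first window was taken to belong to the first start. The second and the third window begin 18577 and 450342 bp after the first. The second hg19 start lies 44497 bp after the first, so neither window was taken to belong to it. If distances are alike in both builds, the second RefSeq start lies shortly past chr15:71407057-71407517, a peak that ends 18226 bp after the first hg19 start. The third would lie between the peaks centred at 252.1 and 582.7 kb. These placements were not checked. The second window is shown for its contrast in base composition. Both are on the plus strand and are written 5′ to 3′, and capitals mark the half-site GGTCA on either strand (TGACC on the other).
THSD4 first RefSeq start, chr15:71096644-71096893: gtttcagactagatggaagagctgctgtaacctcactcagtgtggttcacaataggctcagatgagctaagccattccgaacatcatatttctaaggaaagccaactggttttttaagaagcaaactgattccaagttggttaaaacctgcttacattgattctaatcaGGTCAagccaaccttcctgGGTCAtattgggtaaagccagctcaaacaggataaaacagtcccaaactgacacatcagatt
THSD4 second RefSeq start, chr15:71115221-71115470: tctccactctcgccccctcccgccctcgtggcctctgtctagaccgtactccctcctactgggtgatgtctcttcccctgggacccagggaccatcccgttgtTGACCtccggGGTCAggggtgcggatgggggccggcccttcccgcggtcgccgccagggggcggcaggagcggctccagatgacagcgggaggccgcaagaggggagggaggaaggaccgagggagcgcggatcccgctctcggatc

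The first window was poor in G and C and held 2 half-sites in the same orientation, whose first bases lie 81 and 62 bases before the start. G and C made up 41.6% of its 250 upstream bases, and the dinucleotide CG occurred 1 time. The second window was rich in G and C at 70.4%, with 21 CG dinucleotides, and its 2 half-sites point away from each other, beginning 147 and 137 bases before the start. Across all RefSeq windows the median was 58.0% G and C, and 16.4% of the windows had as little as the first THSD4 window or less. The half-site, searched on both strands over 300 bases, was present in 37.4% of the 35116 windows, and 9.28% held 2 or more. The third THSD4 window held 0 half-sites before its start.

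Other motifs were searched on both strands as well. Of these, AGATAA, a letter string bound by GATA factors, occurred 27 bases after the first RefSeq start and is found in 10.3% of all windows. GGGCGG, the Sp1 string, was not in the first window and occurred 3 times in the second; 45.0% of all windows hold it. The forkhead string TGTTTAC (3.42% of windows) and the AP-1 string TGANTCA (7.71%) were in none of the 3 THSD4 windows. The full oestrogen response element, with its half-sites facing each other, was in none of the 3 and in 0.0570% of all windows. GGTCA can form part of the full element, and the other strings share no fixed overlap with it. These are matches of letters in short windows and not binding sites, and the sequence under the other peaks was not analysed here.

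ERα peaks were denser around the start of THSD4 than along the rest of the gene. Of the 24 peaks, 7 were centred upstream of the first start, 8 between both starts and 9 in the gene body, which here means from the second start to the end. The 74.3 kb of the locus beyond the gene's end held 0 listed peaks. The first 2 groups together are called the upstream and promoter part. It held 15 peaks in 183.8 kb, or 81.6 per Mb (exact Poisson 95% interval 45.7 to 134.6), and the gene body held 9 in 641.9 kb, or 14.02 per Mb (6.41 to 26.6). The density was 5.82 times as high in the upstream and promoter part, a ratio that the choice of the locus bears on. The intervals reflect counting error alone and take no account of the dependence between neighbouring peaks. The ratio depended on where the gene was divided: at the first start it was 2.03, because the 8 peaks between both starts then count with the gene. Chromosome 15 outside the locus held 4.12 peaks per Mb, less than the gene body.

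**Figure D1:**
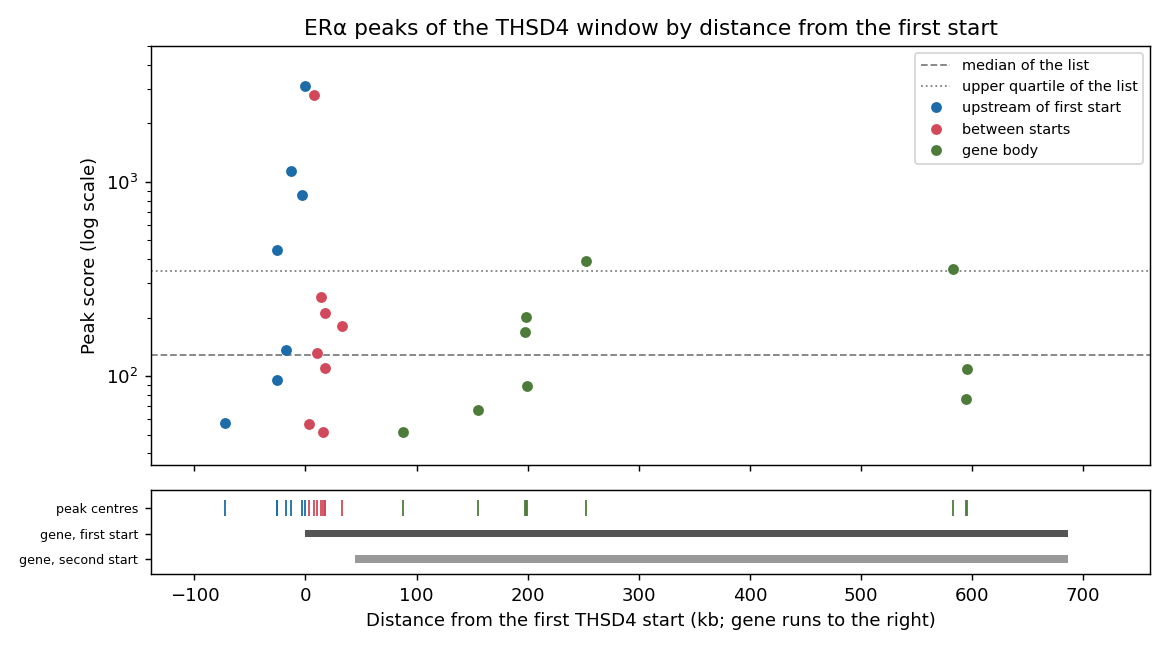
Score of each of the 24 ERα peaks (log scale) against the distance of its centre from the first THSD4 start in kb, coloured by position, with the median and upper quartile of all 12688 peaks as horizontal lines. The lower panel marks the peak centres and the gene from each start. The 3 scores above 1000 all lie within 13 kb of the first start, and no peak is centred between 252.1 and 582.7 kb.

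A score is the value that the authors' peak caller gave to a peak. In the sources used here its scale is not given, so it served only to rank peaks of the list against each other. The median of the list was 128, the upper quartile 347 and the lowest score 50. At the top, 235 peaks share the score 3100 and 34 lie above it, so peaks at 3100 are not ranked among themselves.

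The peak over the first start, chr15:71388721-71389588, carried this shared score of 3100. It was the only one of the 24 peaks at 3100 or more, against 2.12% of the list, and at 868 bp it was also the widest of the locus. The second-highest score, 2792.48, belonged to chr15:71396836-71397653, centred 7.95 kb after the first start and 818 bp wide. Only 344 peaks of the list scored as high or higher. The centres of these 2 peaks were 8.09 kb apart. After their values were seen, such pairs were counted: of the 320 clusters or single regions that hold a peak of at least 2792.48, 21 hold 2 or more.

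Upstream of the first start, the 3 peaks centred within 13 kb of it all scored above the upper quartile, and the farthest peak scored low. The peak chr15:71385881-71386698, centred 3.002 kb before the start, scored 849.83. At 12.9 kb before the start, chr15:71376052-71376707 scored 1129.53, which placed it at rank 1201 of the list. A narrower peak 25.2 kb before the start, chr15:71363850-71364273, scored 443.37. These 3 peaks and the one over the start were the 4 of the 7 that reached the upper quartile of the list.

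The other 3 upstream peaks lay near or under the middle of the list. The peak chr15:71371362-71372092 scored 136.72, just above the median, although it was 731 bp wide. Beside the peak at 25.2 kb, separated from it by 58 bp, chr15:71363268-71363791 scored 95.55. The first peak of the locus, chr15:71316970-71317350, stood alone 72.1 kb before the start with a score of 57.32. Its nearest neighbour was centred 46.4 kb away.

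Between both starts, 1 of the 8 peaks reached the upper quartile of the list and the other 7 did not. Besides the peak of 2792.48, the highest was chr15:71403364-71403984 with 254.08, centred 14.4 kb after the first start. Next came chr15:71407057-71407517 with 210.83, at 18 kb. The peak chr15:71421963-71422503, 32.9 kb after the first start and the nearest to the second, scored 181.78. It was centred 11.6 kb before the second start, and 0 peaks lay within 1 kb of that start. This holds for the second hg19 start and not for the second RefSeq start, 18577 bp after the first. If distances are alike in both builds, the peaks centred at 17.4 and 18 kb lie near the latter.

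Of the 4 remaining peaks between both starts, 1 lay just above the list's median and 3 below it. The former was chr15:71399729-71400158 with 131.44, and chr15:71406416-71407008 scored 110.54. The peak chr15:71392031-71392377, centred 2.91 kb after the first start and thus between the 2 highest peaks of the locus, scored 56.46. The lowest of all 24, chr15:71404716-71405129, scored 51.49. High and low scores therefore alternated over a few kb on this side of the first start.

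**Figure D2:**
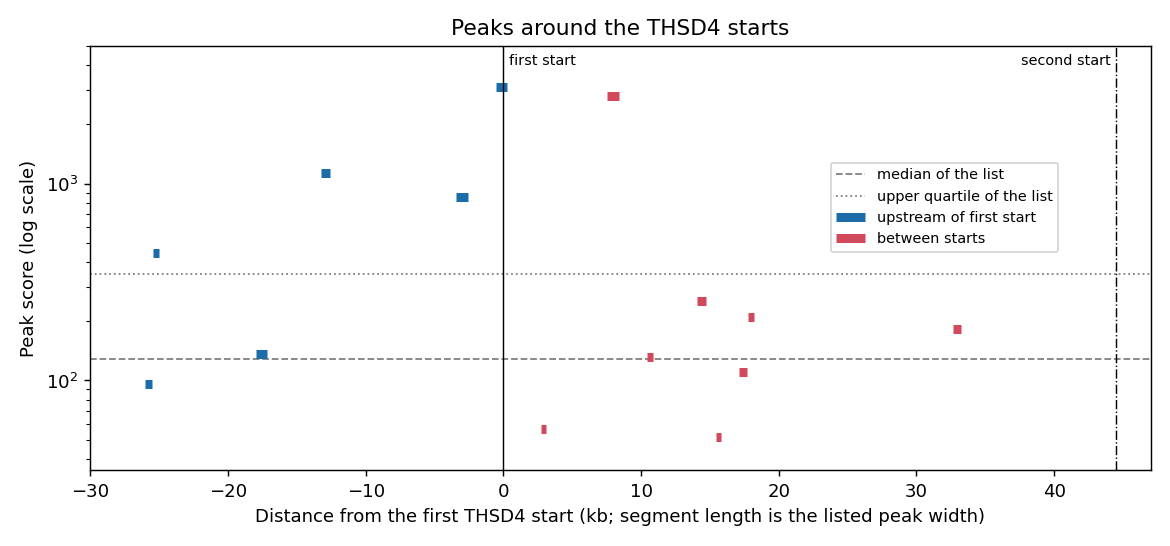
Peaks from 30 kb before to 47 kb after the first THSD4 start. Each segment spans the listed peak width in kb at the height of its score (log scale), the vertical lines mark both starts, and the horizontal lines mark the median and upper quartile of the list. The widest segments, among them those at 3100 and 2792.48, lie near the first start, and no segment touches the second.

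Of these peaks, 13 formed 1 cluster when peaks with edges within 10 kb of each other were joined. The cluster ran from 71363268 to 71407517, 26.0 kb before to 18.2 kb after the first start, with 6 peaks centred before the start and 7 after it. It took up 4.92% of the length of the locus and held 54.2% of its peaks. Its centres were unevenly spaced, from 0.532 to 9.91 kb apart, with a coefficient of variation of 77.8%. Of the 13 peaks, 9 reached the list's median score, a share of 69.2% (Wilson 95% interval 42.4 to 87.3%) against 50% of the list by construction. With edges joined within 5 kb, 9 peaks from 71385881 to 71407517 remained together, and with 20 kb the peak at 32.9 kb joined as the 14th.

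The list holds 4 other clusters of 13 or more peaks. Those on chromosomes 16, 10 and 17 resembled the THSD4 cluster: each spanned 44.0 to 52.2 kb, had a top score of 3100 and had a second score between 2878.67 and 3100. Their spacing varied by 58.0%, 74.3% and 84.6%. The 15 peaks of the cluster on chromosome X spanned 44.8 kb too, but its top and second scores were 1058.58 and 401.10 and its spacing varied by 10.7%. Peaks covered 17.4% of the THSD4 cluster, against 17.0% on chromosome 10, 24.1% on chromosome 16, 29.0% on chromosome 17 and 49.5% on chromosome X. These are single clusters of 1 library, and differences between them were not tested. Of the 12 clusters with 10 or more peaks, 10 held a peak of 3100 or more, the THSD4 cluster among them. Of single peaks in the list, 2.12% reached this score. A cluster with more peaks has more that could reach it, and no share was computed for smaller clusters.

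Along the gene body, the same joining within 10 kb left a group of 3 peaks, a group of 2 and 4 single peaks. Only chr15:71641152-71641602 (391.83) and chr15:71971734-71972245 (353.68) reached the upper quartile of the list, 252.1 and 582.7 kb after the first start. The group of 3 lay 197.6 to 199.5 kb after the first start. Its peaks were chr15:71586547-71587150 with 167.74, chr15:71587321-71588082 with 201.19 and chr15:71588555-71589070 with 88.94. At 762 bp the middle one was the widest of the gene body.

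The group of 2 held the last peaks of the gene. Centred 12.3 kb past the single peak of 353.68, chr15:71984096-71984426 scored 76.34, and beside it chr15:71984741-71985225 scored 108.94. The former was the narrowest of the 24 peaks, with 331 bp. The latter was the last peak of the locus and the nearest to the end of the gene, 90.7 kb before it. The other two single peaks, chr15:71476375-71476931 and chr15:71544397-71544832, lay 87.4 and 155.3 kb after the first start and scored 51.51 and 66.92. Between 71641602 and 71971734 no peak was listed. This gap of 330.1 kb made up 51.4% of the gene body.

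Peaks of the gene body scored lower than the highest peaks at the start, but the 2 parts overlapped widely. In the upstream and promoter part, scores ran from 51.49 to 3100 with a median of 182, and in the gene body from 51.51 to 391.83 with a median of 109. The list's median was reached by 10 of 15 peaks (66.7%, Wilson 95% interval 41.7 to 84.8%) and 4 of 9 (44.4%, 18.9 to 73.3%), and the intervals overlapped. Wilson intervals, here and for the cluster, cover counting error only and take no account of the dependence between neighbouring peaks. No test of the difference was run. The upper quartile was reached by 25% of the list, by construction, and by 5 of 15 (33.3%, 15.2 to 58.3%) and 2 of 9 (22.2%, 6.32 to 54.7%). Over all 24 peaks these counts were 14 (58.3%, 38.8 to 75.5%) and 7 (29.2%, 14.9 to 49.2%), and both intervals include the share of the whole list. Scores of 1000 or more occurred 3 times in the upstream and promoter part and 0 times in the gene body. The lowest of these 3, 1129.53, ranked 1201 in the list, with 90.5% of all peaks at or below it. Such scores are therefore not rare in the list, and counts this small do not separate the parts.

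**Figure D3:**
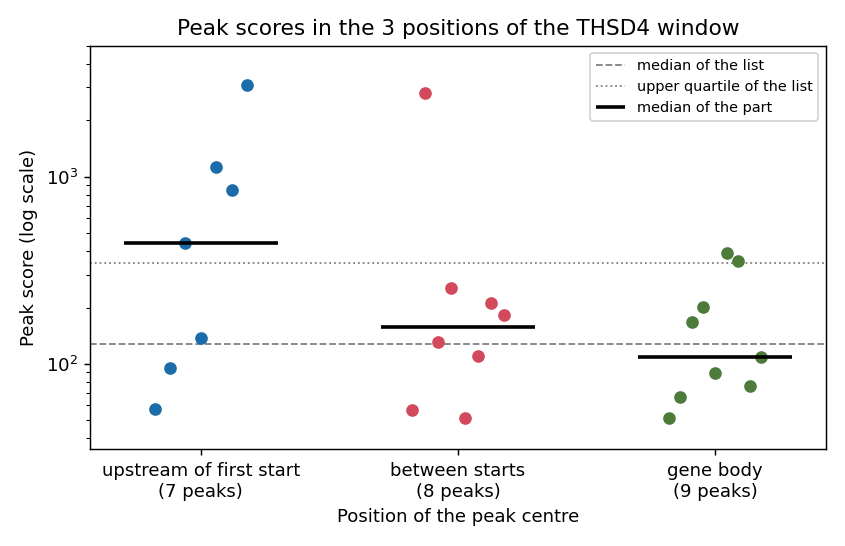
Scores (log scale) of the 7 peaks upstream of the first THSD4 start, the 8 between both starts and the 9 in the gene body, with the median of each as a black bar and the median and upper quartile of the list as dashed and dotted lines. The medians are 443, 157 and 109, and the ranges of all 3 overlap.

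Widths followed the scores about as they did elsewhere. The 24 peaks were 331 to 868 bp wide with a median of 520 bp, against 505 bp in the list. Width and score had a Spearman correlation of 0.611 across these peaks, which share 1 library and are not replicates, and of 0.628 across the list. The median width was 541 bp in the upstream and promoter part and 512 bp in the gene body.

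Close neighbours were frequent among the peaks of THSD4, which follows from the choice of a crowded locus and is given as a description. Another peak centre lay within 10 kb for 18 of the 24, against 41.3% of the list. They were 13 of the 15 peaks in the upstream and promoter part and 5 of the 9 in the gene body. In 5 places the edges of neighbouring peaks were at most 500 bp apart. Merging these left 19 regions, 13 in the upstream and promoter part and 6 in the gene body, and a density ratio of 7.57. Whether such neighbours are separate sites was not tested.

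The density of the locus is set beside its surroundings as a description, since crowding is what it was chosen for. It held 26.7 peaks per Mb, and chromosome 15 outside it held 4.12 per Mb, a ratio of 6.47. The same ratio was 19.8 for the upstream and promoter part and 3.40 for the gene body. The nearest listed peaks outside were chr15:70895404-70895834 with a score of 58.53, 421.1 kb before the first peak of the locus, and chr15:72261276-72261886 with 404.78, 276.1 kb after the last. Both edges of the locus thus fell into stretches without a peak. The same 24 peaks were found when any overlap with the locus counted.

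Among 3357 windows of 900 kb laid end to end from the THSD4 window on chromosomes 1 to 22 and X, the median held 2 peaks and 896 held 0. A count of 24 was found in 7 windows including this one, and 13 windows held more, up to 63. Such a count or a higher one was thus reached by 0.596% of the windows. This share is a description and no measure of rarity, since the locus was chosen for its crowding. Its edges also fell into stretches without a peak, whereas the other windows lie on a fixed grid that can divide a cluster. At a finer scale, the most crowded of the THSD4 peaks had 13 peaks, itself included, within 25 kb to either side. In the list, 10 peaks had as many or more, this one included. Neighbouring peaks can share such a count, so these 10 need not be separate places.

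**Figure D4:**
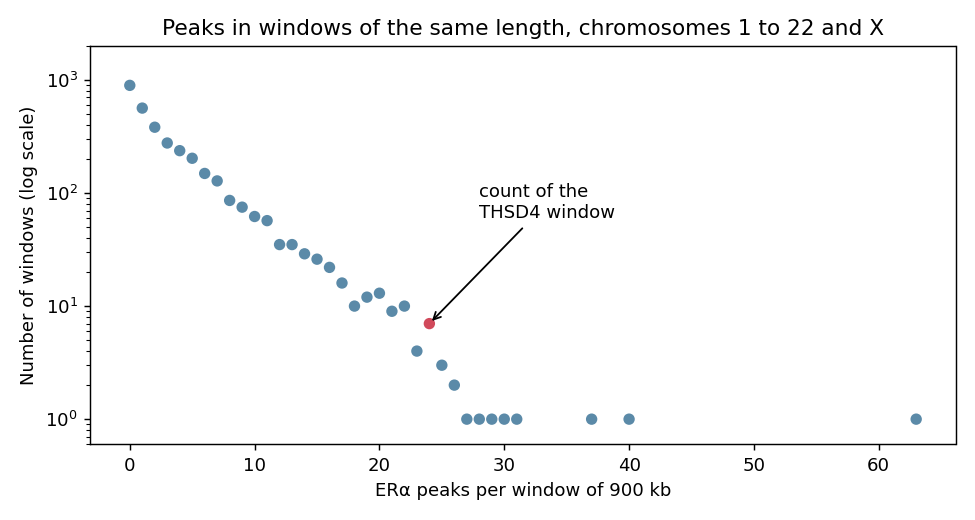
Number of 900 kb windows (log scale) against the number of ERα peaks they hold, over 3357 windows of chromosomes 1 to 22 and X. The red point is the count of 24 peaks of the THSD4 window, shared by 7 windows, and 13 windows lie to its right.

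By name only, the RefSeq table places THAP10 and NR2E3 as the nearest protein-coding genes on either side of THSD4, and it lists non-coding genes that overlap it, among them CT62, THSD4-AS1 and THSD4-AS2. The positions of these genes in hg19 were not used. Peaks inside THSD4 may therefore lie in or near such a gene as well, and a peak's place in a gene does not show which gene it acts on.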

How the data were processed

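The data are 1 peak list of an ERα library over an input library from estradiol-treated T47D cells. Rows give a position, a name and a score for each peak. The score is as deposited by the authors; in the sources used here no scale, caller threshold, caller version or handling of duplicate reads is given. Peak names begin with MACS, per the file, and per the submitters' processing notes Bowtie 0.12.9, CASAVA 1.8 and HOMER are named with no role, and the build is hg19. Read depth is unknown, and which weak sites entered the list depends on it.

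Starts were counted from 0 in the file, and 1 was added for printing. Peaks were placed by their centres. Chromosome lengths came from GenomeInfoDb 1.38.1. Intervals (95%) are exact Poisson for densities, and Wilson for shares; an interval conditional on the total served only to compare alternatives of the density ratio. With 1 library of each kind no test was possible and none was run. Joining of peaks and the Poisson interval were tested on simulated data, and the Wilson and conditional intervals were not. An interval of the median from ranked scores was also tested and served only to compare alternatives of the median score. The locus, the parts and the motifs were chosen with earlier results of these data known. Peaks named singly are the 5 highest in each part, those nearest to a start or the end, and the widest and lowest; the others were added for completeness. Alternatives were stricter scores, merging within 500 bp, other divisions of the gene and other joining distances. No genome sequence of hg19 was used; promoter windows are those of RefSeq for GRCh38.p14. Software was SciPy 1.17.1, pandas 2.3.3, matplotlib 3.10.9 and NumPy 2.4.6 under Python 3.11.15.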

Additional observations from a re-analysis of the deposited data

How the results depend on the processing

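Across 9 results and 29 alternatives, 23 values stayed within the main interval or within 1.5 times the main count. The intervals of shares and medians were wide, so staying within them does not show that a value was stable. With the gene divided at the first start, the upstream median score went from 181.78 to 443.37, inside its interval of 95.55 to 849.83. The gene body's share at or above the list median went from 44.4% to 52.9%, and its median score from 108.94 to 131.44. Stricter scores removed peaks by construction. At or above the list median, 14 of the 24 THSD4 peaks were left and 4 of the 9 in the gene body. At or above the upper quartile, 7 were left in all, 5 in the upstream and promoter part and 2 in the gene body. Dividing the gene at the first start moved the density ratio from 5.82 to 2.03, since 8 peaks then changed sides. With the division at the end of the cluster it was 5.94. That end was set from these same peaks and keeps the whole cluster on the same side, so a high ratio there is built in. After merging it was 7.57, and for peaks at or above the median 8.73. In none of these did the direction turn, but the choice of the locus bears on all of these ratios. No paired analysis was possible because the list compares 1 ERα library with 1 input library. The unknown read depth and the single ERα library leave every peak without an error.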
